A study of Mus musculus with 30 samples.

Results

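The suppressors of cytokine signaling (SOCS) form a family of 8 genes, Cish and Socs1 to Socs7. All probes that the platform annotation gives to these symbols were followed on whole-genome arrays of mouse liver and muscle, which came to 10 probes of 8 genes among 25697 probes. Of the family, 6 genes had a probe that was measured in both tissues (Cish, Socs2, Socs3, Socs4, Socs5 and Socs6, 1 probe each). Socs1 and Socs7 were at background.

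SOCS proteins are the brake on signaling by cytokines and by growth hormone. A receptor bound by its ligand activates Janus kinases (JAKs), which phosphorylate STAT transcription factors, and the STATs then raise the transcription of SOCS genes, whose products bind the receptor or the kinase and shut the pathway down. A shared carboxy-terminal motif, the SOCS box, recruits a ubiquitin ligase built on elongins and Cul5. In liver, Cish and Socs2 are known as targets of growth hormone acting through STAT5, and Socs3 as a target of interleukin-6 and leptin acting through STAT3.

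The mice were male C57BL/6J on 1 of 3 diets. The first was AIN-93G chow with SRT2104, a synthetic activator of the deacetylase SIRT1, at 1.33 g per kg of chow or about 100 mg per kg of body weight a day. The second was a calorie-restricted AIN-93G diet (CR, 40% restriction), and the third was AIN-93G chow fed ad libitum (standard diet, SD). Each diet had 5 arrays in liver and 5 in muscle, 30 in all. The diets began at 28 weeks of age by the labels, which give 41 weeks of age and 14 weeks of feeding for the CR mice. The labels of the SRT2104 and SD mice speak of the end of life instead, whereas the design notes have 5 mice of every diet taken after 41 weeks and the methods of the paper give 41 weeks of age for the arrays. Which muscle was taken, and at what hour, was not stated by the labels or the paper. No label says that arrays with the same replicate number come from the same mouse. The deposited signal columns carry numbers that liver and muscle share, which no source ties to the replicate numbers.

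Muscle fibre markers (Ckm, Acta1, fast myosin and 7 others) were measured for 10 of 10 genes in muscle and for 0 of 10 in liver, and 8 of 10 hepatocyte markers were measured in liver. The albumin probe was detected on 9 of 15 livers, while Apoa1, Apoa2, Ttr, Serpina1a, Ahsg, Trf and Cps1 were detected on 15 of 15. An earlier analysis of these data had set 3 muscle arrays apart. The median correlation with the other arrays of the diet was 0.811 for CR replicate 3, 0.903 for SRT2104 replicate 3 and 0.966 for SD replicate 1, against 0.964 to 0.992 for the other 12, and within SD it was 0.990 to 0.992 for the other 4. SD replicate 1 also had the lowest mean level of muscle fibre markers of the 15 arrays, 13.25 against 14.02 to 14.25 in the other SD muscles. SRT2104 replicate 3 also carried hepatocyte transcripts, whose mean level over 5 markers was 14.62 log2 units there and 7.21 to 8.29 in the other SRT2104 muscles. Muscle results are therefore given over 15 arrays and over the 12 without these. Among livers the correlations lay between 0.973, for SD replicate 1, and 0.993.

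The promoters of Cish and Socs3 are shown first, as the 2 genes with a called difference of over 2-fold between diets, and because STAT factors are known to bind the palindrome TTCNNNGAA, which reads the same on both strands. Promoter windows of 300 bases (250 before and 50 from the start that the promoter table uses) were given by RefSeq for 4 of the 8 genes, in build GRCm38.p6. The windows, 5′ to 3′ on the strand of the gene, were chr9:107296409-107296708 on the plus strand for Cish and chr11:117969317-117969616 on the minus strand for Socs3. The Socs3 window lies inside the span that RefSeq gives the gene (chr11:117966079-117970336) and so does not cover its outermost start. Capitals mark each match to the palindrome.
Cish: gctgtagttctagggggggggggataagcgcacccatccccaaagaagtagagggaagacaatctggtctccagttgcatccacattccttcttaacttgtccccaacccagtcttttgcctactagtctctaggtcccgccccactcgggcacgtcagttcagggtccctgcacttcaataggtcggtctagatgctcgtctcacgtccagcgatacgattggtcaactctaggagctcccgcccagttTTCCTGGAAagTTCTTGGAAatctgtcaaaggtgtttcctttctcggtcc
Socs3: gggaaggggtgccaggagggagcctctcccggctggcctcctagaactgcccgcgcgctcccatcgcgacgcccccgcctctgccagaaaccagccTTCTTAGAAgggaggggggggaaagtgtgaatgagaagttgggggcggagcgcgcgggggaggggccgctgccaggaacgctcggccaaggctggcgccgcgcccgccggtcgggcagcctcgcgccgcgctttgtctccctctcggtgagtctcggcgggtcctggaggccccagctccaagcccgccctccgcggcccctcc
Cish had 2 matches, at bases 251 to 259 and 262 to 270 of its window, and Socs3 had 1, at bases 97 to 105. The windows of Socs1 and Socs4 had 0. Over all 32851 windows, 8.3% held at least 1 match and 0.457% held 2 or more. A match is a description of these letters and not a measured binding site.

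In liver, members of the family passed the test against SD with calorie restriction and not with SRT2104, and the direct comparison of SRT2104 with CR called 1 of the 6, Cish. Of the 6 measured members, 4 rose in CR livers relative to SD livers at an adjusted p under 0.05, namely Cish, Socs4, Socs5 and Socs6, and 0 fell. Of all 11065 probes measured in liver, 13.8% rose in this comparison and 12.9% fell. The median log2 change over the 6 members was 0.32, and it was 0.01 over all probes. No member passed the test between SRT2104 and SD livers, where 1.51% of probes rose and 1.65% fell, although 1 of the 6 (Socs2) had an unadjusted p under 0.05, as had 19.2% of all probes. Levels below are on a log2 scale of the probe's signal, with arrays in the order of their replicate numbers, and a difference of 1 is a 2-fold change. They do not compare 1 gene with another, since each probe has its own brightness.

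**Figure D1:**
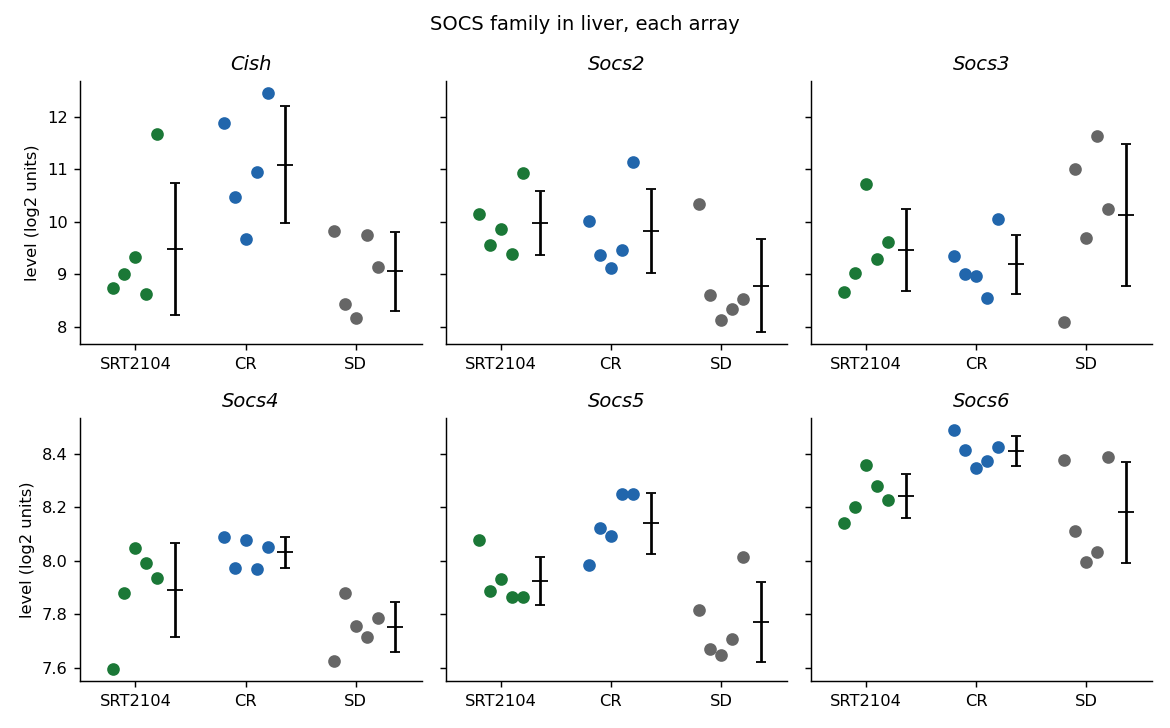
Level of each measured SOCS family member in liver (log2 units, y axis, shared within a row of panels) on each of 5 arrays for SRT2104, CR and SD. Points are arrays in replicate order and the bar beside them is the mean ± SD. Cish lies between 9.67 and 12.46 in CR livers and between 8.16 and 9.83 in SD livers.

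Cish (chr9:107296659-107302784 in GRCm38.p6) encodes the founding member, which docks on cytokine receptors where STAT5 would bind. In CR livers its levels were 11.89, 10.47, 9.67, 10.96 and 12.46. In SRT2104 livers they were 8.73, 9.01, 9.33, 8.62 and 11.67, and in SD livers 9.83, 8.43, 8.16, 9.74 and 9.14. All CR livers but replicate 3 were thus above every SD liver, while 4 SRT2104 livers lay inside the range of the SD livers and replicate 5 far above it. Cish averaged 11.09 ± 1.11 in CR livers and 9.06 ± 0.75 in SD livers (SD, n = 5 each), a 4.08-fold rise (log2 change 2.03, 95% interval 0.84 to 3.22, adjusted p = 0.0142). It was also lower in SRT2104 than in CR livers, by 3.07-fold (log2 change -1.62, interval -2.81 to -0.43, adjusted p = 0.042), a comparison in which 27.1% of probes were called in either direction. Between SRT2104 and SD livers the log2 change was 0.41 (interval -0.78 to 1.6, adjusted p = 0.738), and it was -0.14 once SRT2104 replicate 5 was left out. The SRT2104 minus CR call was lost when any of 7 of the 15 arrays was left out, while CR minus SD was called without each array in turn (adjusted p 0.003 to 0.0436) but had an adjusted p of 0.0504 by the methods' t-test run over the same arrays.

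Socs2 (chr10:95383903-95417321), the inhibitor of growth hormone receptor signaling, had 10.14, 9.56, 9.86, 9.38 and 10.92 in SRT2104 livers. It had 10.02, 9.37, 9.12, 9.46 and 11.14 in CR livers and 10.34, 8.60, 8.12, 8.33 and 8.53 in SD livers. All 10 livers of the SRT2104 and CR mice were above 4 of the 5 SD livers, and SD replicate 1 lay among them. The log2 change was 1.19 for SRT2104 minus SD (interval 0.32 to 2.06, unadjusted p = 0.0104, adjusted p = 0.121) and 1.04 for CR minus SD (interval 0.17 to 1.91, adjusted p = 0.0716). Neither was called over the 15 arrays. Without SD replicate 1 both were, at 1.58 (adjusted p = 0.0227) and 1.43 (adjusted p = 0.00578), where 1.32% of all probes were higher for SRT2104. Leaving out any other single array called neither. Socs2 did not separate SRT2104 from CR livers (log2 change 0.15, interval -0.72 to 1.02). Because the study itself named Socs2 in liver and Cish in muscle from these arrays, their values here are no independent evidence of those changes.

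Socs3 (chr11:117966079-117970336), which inhibits JAKs downstream of gp130 and the leptin receptor, differed most within the SD group. Its levels were 8.67, 9.03, 10.72, 9.30 and 9.61 in SRT2104 livers and 9.36, 9.01, 8.97, 8.55 and 10.06 in CR livers. In SD livers they were 8.08, 11.01, 9.70, 11.63 and 10.24, a range of 11.7-fold. SD replicate 1, the array with high Socs2, was the lowest of all 15 for Socs3, and the other 4 SD livers were above 4 of the 5 CR livers. The log2 change was -0.94 for CR minus SD (interval -2.02 to 0.14, adjusted p = 0.189) and -0.66 for SRT2104 minus SD (interval -1.75 to 0.42, adjusted p = 0.514). Without SD replicate 1 the CR difference was -1.45 (adjusted p = 0.0138), and all 6 measured members were then called, 5 of them higher and Socs3 lower, beside 26.8% of all probes in either direction. Over the 15 fits that left out 1 array, 3 to 6 members were called, and Socs3 only in this 1.

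Socs4, Socs5 and Socs6 made small and tight changes. Socs4 and Socs5 are known to act on epidermal growth factor receptor signaling, and Socs6 on the Kit and insulin pathways. Socs4 had 8.09, 7.97, 8.08, 7.97 and 8.05 in CR livers and 7.62, 7.88, 7.76, 7.72 and 7.79 in SD livers. These diets did not overlap, as for 8.31% of all probes in this direction, and the rise was 1.21-fold (log2 change 0.28, interval 0.11 to 0.45, adjusted p = 0.0167). Socs5 had 7.98, 8.12, 8.09, 8.25 and 8.25 in CR livers and 7.82, 7.67, 7.65, 7.71 and 8.01 in SD livers, so that 1 SD liver lay within the CR range, and rose 1.29-fold (log2 change 0.37, interval 0.20 to 0.54, adjusted p = 0.003). Socs6 had 8.49, 8.41, 8.35, 8.37 and 8.43 in CR livers and 8.38, 8.11, 8.0, 8.03 and 8.39 in SD livers, 2 of which lay within the CR range. Its 1.17-fold rise (log2 change 0.23, interval 0.06 to 0.40, adjusted p = 0.047) was lost under 5 of 10 other settings of the analysis and without any 1 of 12 of the 15 arrays. In SRT2104 livers these 3 genes stood between CR and SD on average. Their log2 changes from SD were 0.06 to 0.15 and from CR -0.21 to -0.14, and none passed the test, the nearest being Socs5 against CR (adjusted p = 0.0564).

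The spread between mice of 1 diet split the family in the same way. In liver the within-diet SD was 1.06 for Cish, 0.96 for Socs3 and 0.78 for Socs2 (log2 units), and only 12, 19 and 40 of 11065 probes varied more. It was 0.12 for each of Socs4, Socs5 and Socs6, below the median of 0.14 over all probes.

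**Figure D2:**
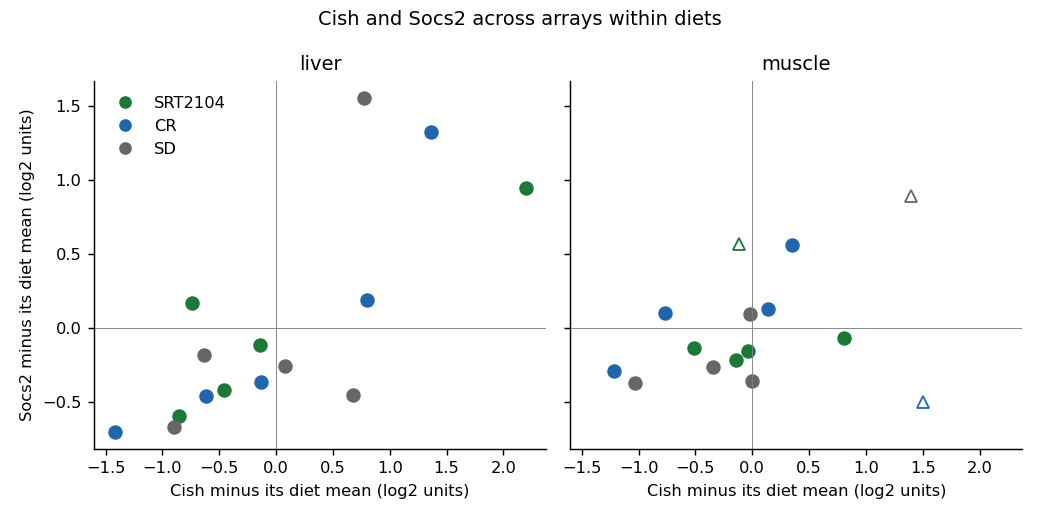
Socs2 against Cish on each array after the mean of its diet was subtracted (both axes in log2 units), for 15 liver and 15 muscle arrays. Open triangles are the 3 muscle arrays set apart. In liver the points rise together (r 0.762), and in muscle they do so less closely (r 0.329 over 15 arrays, and 0.691 without the triangles and with diet means taken over the other 12).

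Cish and Socs2 varied together between livers of the same diet. After subtraction of the diet means, Pearson's r over the 15 livers was 0.762 (permutation p = 0.00054, two-sided, 100000 permutations within diets) and Spearman's rho was 0.764 (permutation p = 0.00368). Adjusted over the 2 tissues tested, these p-values were 0.00108 and 0.00736. Without the 2 livers farthest from the median in Cish (SRT2104 replicate 5 and CR replicate 5), r was 0.61. In muscle r was 0.329 (permutation p = 0.293, adjusted 0.293) and rho 0.279 (permutation p = 0.379), and over the 12 muscle arrays r was 0.691 (permutation p = 0.0305). The difference between tissues was not tested. Over all genes measured in liver, the 3 whose levels followed those of Cish most closely across the 15 arrays were Sgk3, a serine/threonine kinase (r 0.933), Rgs3, a regulator of G protein signaling (r 0.914), and Foxa2, a hepatocyte transcription factor (r 0.894). Socs2 ranked 330 of 7724 (r 0.678). The genes closest to Socs2 were Mettl6 (r 0.831), Prpf40b (r 0.821) and Rps15a (r 0.818). These likenesses hold the diet differences too and carry no test.

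Markers of the cell types in liver were read beside these results. Among the 8 measured hepatocyte markers, 5 were higher in SRT2104 than in SD livers and 4 were higher in CR than in SD livers, with 0 lower in either comparison, beside the 1.51% of all probes that rose with SRT2104 and the 13.8% that rose with CR. Their mean level ranged over 14.35 to 14.84 in SRT2104 livers, 14.33 to 14.59 in CR livers and 13.92 to 14.38 in SD livers. Of the 7 macrophage markers, 1 was lower in CR than in SD livers, near the 12.9% of all probes, and their mean was 8.90 to 9.15 in SRT2104, 8.85 to 9.18 in CR and 8.93 to 9.33 in SD livers. Of 7 neutrophil genes, the 2 measured, S100a8 and S100a9, averaged 8.33 to 9.14 in SRT2104, 8.16 to 9.90 in CR and 8.25 to 10.66 in SD livers, with 0 called. None of 10 T and B cell markers was measured in either tissue, and of 7 endothelial markers 0 passed against SD. In bulk tissue, fewer cells of a type and less RNA per cell cannot be told apart, and the part of these cells in the SOCS values was not tested.

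In muscle over all 15 arrays, no family member passed the test against SD on either diet, and Socs3 was the 1 member lower in SRT2104 than in CR muscle. Of 10792 probes measured in muscle, 3.78% rose and 6.99% fell with SRT2104 against SD, and 0.0556% rose and 0.398% fell with CR against SD. At an unadjusted p under 0.05 there were 2 members in each of these comparisons (Cish and Socs6 for SRT2104, Cish and Socs3 for CR), among 25.9% and 10.6% of all probes. Over the 12 arrays Cish rose on both diets, where 17.5% and 0.445% of all probes rose.

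**Figure D3:**
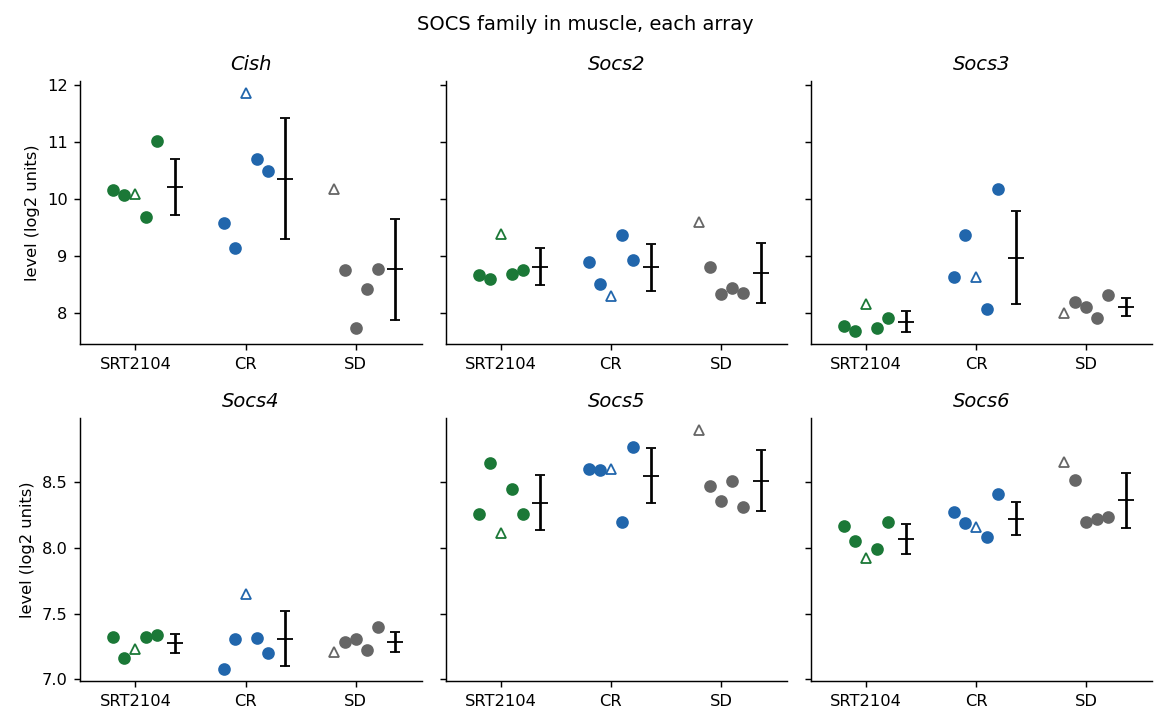
Level of each measured SOCS family member in muscle (log2 units, y axis, shared within a row of panels) on each of 5 arrays for SRT2104, CR and SD, with the mean ± SD of the 5 beside them. Open triangles are SRT2104 replicate 3, CR replicate 3 and SD replicate 1. Without them, Cish is at 9.69 to 11.01 with SRT2104, 9.14 to 10.70 with CR and 7.74 to 8.77 on SD.

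Cish had 10.16, 10.06, 10.09, 9.69 and 11.01 in SRT2104 muscles. In CR muscles it had 9.59, 9.14, 11.86, 10.70 and 10.49, and in SD muscles 10.17, 8.75, 7.74, 8.43 and 8.77. Every SRT2104 and CR muscle was above 4 of the 5 SD muscles, and only SD replicate 1 fell among them. Over 15 arrays Cish was 2.70-fold higher with SRT2104 (log2 change 1.43, interval 0.40 to 2.46, adjusted p = 0.0706) and 3.00-fold higher with CR (log2 change 1.58, interval 0.56 to 2.61, adjusted p = 0.228), neither of them called. Over the 12 arrays the rises were 3.51-fold (log2 change 1.81, adjusted p = 0.00181) and 2.95-fold (log2 change 1.56, adjusted p = 0.0405). SD replicate 1 is not in the 12, and the lack of overlap between the groups followed from leaving it out. The same lack of overlap was seen for 36.0% of all probes, in either direction, with SRT2104 and 3.38%, in this direction, with CR. SRT2104 and CR muscles were not separated (log2 change -0.15, interval -1.18 to 0.88 over 15 arrays, and 0.25, interval -0.51 to 1.02 over 12).

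Socs3 had 7.77, 7.68, 8.15, 7.75 and 7.90 in SRT2104 muscles, 8.62, 9.37, 8.63, 8.07 and 10.17 in CR muscles, and 8.01, 8.19, 8.11, 7.91 and 8.31 in SD muscles. The SRT2104 and SD muscles were tight, and 4 of the 5 CR muscles were above every one of both. Socs3 was 2.18-fold lower in SRT2104 than in CR muscles (log2 change -1.12, interval -1.73 to -0.52, adjusted p = 0.022), where 5.01% of probes were higher and 5.66% lower. Over the 12 arrays it was 2.43-fold lower (log2 change -1.28, adjusted p = 0.00723, as were 14.9% of probes) and the groups did not overlap, as for 13.5% of probes in this direction. SRT2104 replicate 3, at 8.15 the only SRT2104 muscle above a CR muscle, is not in the 12. The adjusted p was 0.0798 when only these 2 diets entered the fit and 0.13 by the methods' t-test. Of 15 fits that left out 1 array, 11 kept the call. The spread within a diet was 0.81 with CR, 0.19 with SRT2104 and 0.16 on standard diet, and the main fit shares 1 spread among them. Against SD, the log2 change was 0.87 with CR (interval 0.26 to 1.47, unadjusted p = 0.00806, adjusted p = 0.265) and -0.25 with SRT2104 (interval -0.86 to 0.35).

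Markers of other cell types were read beside Socs3 in muscle. Between SRT2104 and CR muscles, 2 of 3 measured adipocyte markers were lower, beside 5.66% of all probes. So were 2 of 5 macrophage markers and 3 of 8 fibroblast and matrix markers. Of 8 endothelial markers 1 was higher, beside 5.01% of probes, and 0 of 10 muscle fibre markers were called. Against SD, 2 macrophage and 3 matrix markers were lower with SRT2104, beside 6.99% of probes, and 0 of either were called with CR. Adipocyte markers averaged 7.24 to 7.53 in SRT2104, 7.93 to 12.07 in CR and 8.17 to 8.69 in SD muscles, and Fabp4 and Retn were detected on 0 of 15 arrays. Macrophage markers averaged 7.59 to 7.86 in SRT2104, 7.94 to 8.76 in CR and 7.96 to 8.36 in SD muscles, and matrix markers 8.40 to 8.72 in SRT2104, 9.17 to 9.70 in CR and 9.13 to 9.65 in SD muscles. The CR muscle with the highest adipocyte level, replicate 2 at 12.07, had a Socs3 level of 9.37, and the one with the highest Socs3 level, replicate 5 at 10.17, had the lowest adipocyte level of its group, 7.93. Their part in the Socs3 difference was not tested.

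No other member passed the test in muscle. Socs2 had 8.66, 8.60, 9.38, 8.68 and 8.75 in SRT2104 muscles, 8.90, 8.51, 8.30, 9.36 and 8.93 in CR muscles, and 9.59, 8.80, 8.34, 8.44 and 8.35 in SD muscles. The highest SRT2104 value was that of replicate 3 and the highest SD value that of replicate 1, both among the 3 arrays set apart. Its log2 change was 0.11 with SRT2104 (interval -0.42 to 0.64) and 0.10 with CR (interval -0.44 to 0.63), and over the 12 arrays 0.19 and 0.44 (unadjusted p = 0.00996 and adjusted p = 0.154 for CR). Socs6 had 8.17, 8.05, 7.93, 8.0 and 8.20 in SRT2104 muscles and 8.66, 8.52, 8.20, 8.22 and 8.23 in SD muscles. These groups barely failed to overlap, as for 10.9% of probes in this direction, and the log2 change of -0.30 was not called (interval -0.52 to -0.07, adjusted p = 0.0841, and 0.135 over 12 arrays). Socs4 and Socs5 had log2 changes between -0.17 and 0.04 against SD, and Socs4 was above background on 12 of 15 muscle arrays (4 of 5 with SRT2104, 3 of 5 with CR and 5 of 5 on SD). Within-diet SDs in muscle were 0.85 for Cish, 0.49 for Socs3 and 0.43 for Socs2, larger than for 97.7%, 91.3% and 87.2% of probes, and 0.14 to 0.22 for the other members. In muscle the 3 genes most like Cish over 15 arrays were Nfu1 (r 0.882), Smc5 (r 0.866) and Oser1 (r 0.862), and those most like Socs2 were Irgm2 (r 0.779), Tk1 (r 0.774) and Eci2 (r 0.749).

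**Figure D4:**
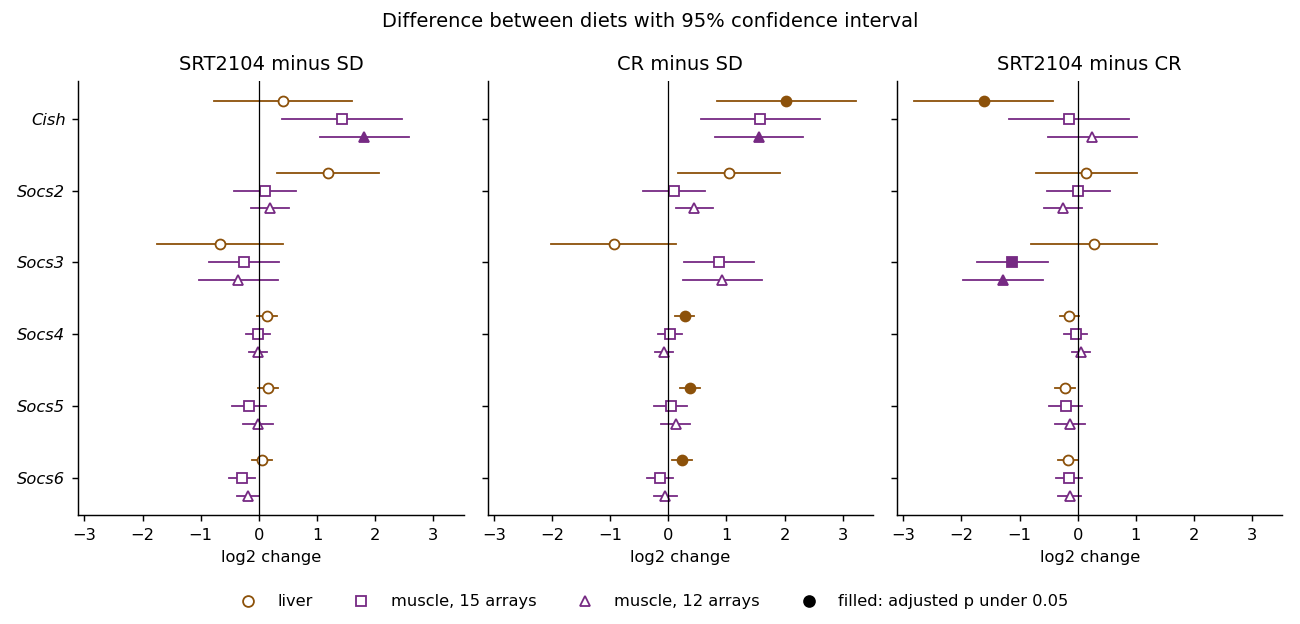
Log2 change (x axis) of each measured member with its 95% confidence interval for SRT2104 minus SD, CR minus SD and SRT2104 minus CR, in liver, in muscle over 15 arrays and in muscle over 12. Filled symbols have an adjusted p under 0.05. In the CR minus SD panel 4 liver symbols are filled, all to the right of 0.

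The effects of the diets were then compared between tissues. The difference of the effect, liver minus muscle, was called for 0 of 6 members on either diet by limma over the 30 arrays, where 10.4% of the 8998 probes measured in both tissues were called for SRT2104 and 4.78% for CR. At an unadjusted p under 0.05 it was 2 members for SRT2104, among 24.7% of probes, and 4 for CR, among 20.2%. The largest was that of Socs3 with CR (liver minus muscle -1.81, interval -3.12 to -0.50, unadjusted p = 0.00867, adjusted p = 0.102), whose change was -0.94 in liver and 0.87 in muscle. For Socs2 with SRT2104 it was 1.08 (interval 0.00 to 2.16, adjusted p = 0.201), and for Cish with SRT2104 -1.02 (interval -2.66 to 0.62, adjusted p = 0.466). Without SD liver replicate 1, the difference was called for Socs2 with SRT2104 (1.47, adjusted p = 0.0424) and for Socs3 with CR (-2.32, adjusted p = 0.0119). Of the 8998 probes, 803 and 371 were then called. Of the 30 fits that left out 1 array, only this 1 called either gene. Over the 27 arrays without the 3 muscle arrays, Socs4 with CR was called (0.36, interval 0.13 to 0.58, adjusted p = 0.0359), as were 11.1% of all probes, and with SRT2104 0 of 6 members were called, beside 26.2%.

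**Figure D5:**
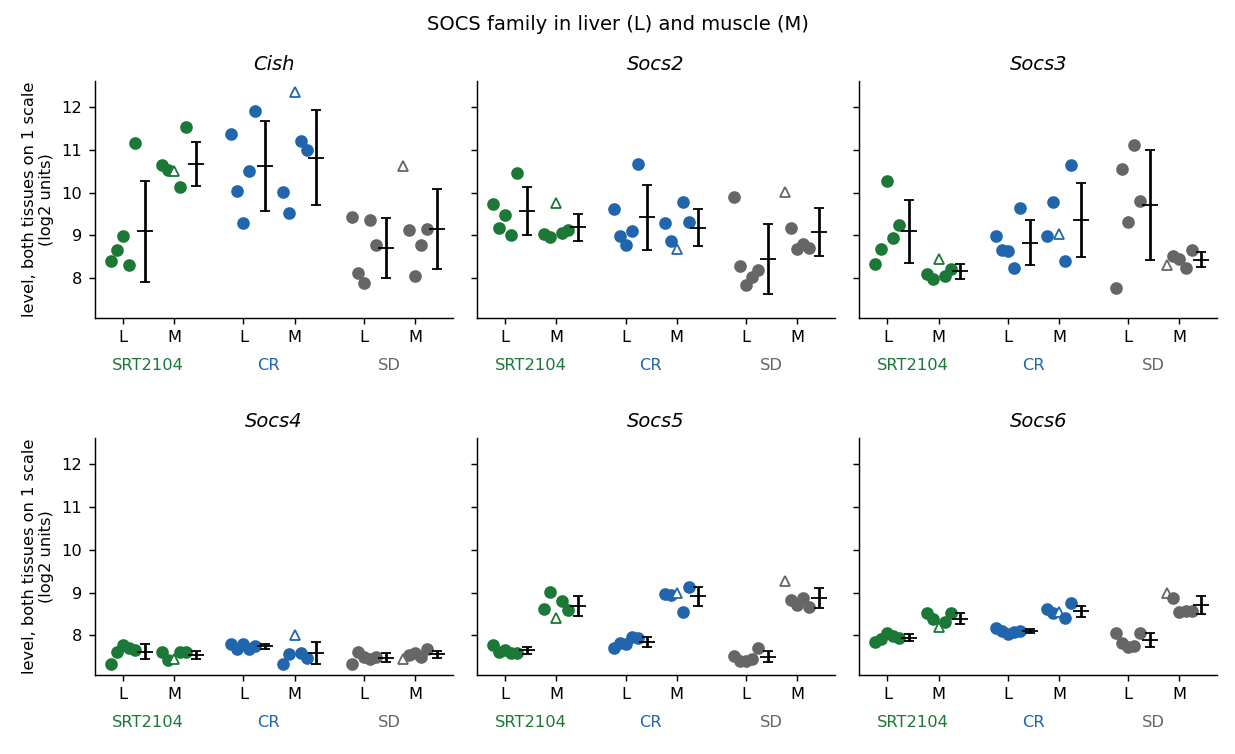
Level of each measured member in liver (L) and muscle (M) with both tissues scaled together (log2 units, y axis), for SRT2104, CR and SD, 5 arrays each with mean ± SD. Open triangles are the 3 muscle arrays set apart. Socs5 on SD is at 7.40 to 7.71 in liver and 8.67 to 9.26 in muscle.

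On SD, 2 members were lower in liver than in muscle and 1 was higher, among 12859 probes of which 41.0% were lower and 32.5% higher. With both tissues on 1 scale, Socs5 had 7.52, 7.41, 7.40, 7.45 and 7.71 in liver and 9.26, 8.82, 8.71, 8.87 and 8.67 in muscle, 2.58-fold lower in liver (log2 difference -1.37, interval -1.60 to -1.13, adjusted p = 1.6e-11). Socs6 had 8.05, 7.83, 7.73, 7.75 and 8.06 in liver and 9.0, 8.87, 8.54, 8.56 and 8.58 in muscle, 1.77-fold lower in liver (log2 difference -0.83, interval -1.02 to -0.64, adjusted p = 5.58e-09). Neither overlapped between tissues, and how many of all probes did the same was not counted. Socs3 was 2.43-fold higher in liver (log2 difference 1.28, interval 0.38 to 2.18, adjusted p = 0.0104) but overlapped, since SD liver replicate 1 was at 7.77 and the 5 muscles at 8.23 to 8.66, and it was not called without SD liver replicate 4 (adjusted p = 0.0538). For Cish, Socs2 and Socs4 the log2 differences were -0.44 (interval -1.58 to 0.71), -0.62 (interval -1.36 to 0.11) and -0.07 (interval -0.27 to 0.12). None of these was called. Without SD liver replicate 1 the Socs2 difference was -0.99 (adjusted p = 0.00854).

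On SRT2104 and CR the order of the tissues was the same for Socs5 and Socs6, in comparisons where 40.7% of probes were lower in liver with SRT2104 and 42.2% with CR. Socs5 was lower in liver by 2.05-fold with SRT2104 (adjusted p = 5.02e-09) and 2.10-fold with CR (adjusted p = 2.64e-09), and Socs6 by 1.36-fold (adjusted p = 0.000112) and 1.38-fold (adjusted p = 5.76e-05). With SRT2104, Cish was 2.98-fold lower in liver than in muscle (log2 difference -1.57, interval -2.72 to -0.43, adjusted p = 0.0136), with overlap between the tissues. Socs3, higher in liver on SD, was called on neither diet. Its log2 difference was 0.936 with SRT2104 (adjusted p = 0.0577) and turned to -0.535 with CR (adjusted p = 0.276).

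Some probes of the family were not above the negative control beads. The Socs1 probe was detected on 0 of 30 arrays, with signals of 104.3 to 170.8. The 2 Socs7 probes were detected on 1 and 0 arrays, the 1 being an SD muscle, and a second Socs6 probe on 0. No diet difference could be read for these, since a probe at background gives only an upper bound on the level.

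The pathway around the family was read from gene lists that were written from known roles. In CR against SD livers, Jak1 rose (log2 change 0.30, adjusted p = 0.015) while Jak2 (-0.38, adjusted p = 0.00648) and Tyk2 (-0.32, adjusted p = 0.00862) fell, out of 4 measured JAKs. Of 4 measured STATs, Stat3, the mediator of interleukin-6 signals, fell (-0.85, adjusted p = 0.000736) and Stat2 rose (0.30, adjusted p = 0.0142). None of 12 measured receptors and receptor substrates that SOCS proteins act on passed the test, and of 7 other inhibitors of the pathway Pias4 (-0.30) and Ptpn6 (-0.26) fell. Of the 7 genes of the SOCS box ubiquitin ligase, Ube2f (0.44) and Nedd8 (0.21), its neddylation enzyme and modifier, rose. Of 14 other SOCS box proteins 1 rose (Vhl, 0.32) and 1 fell (Spsb3, -0.28).

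Target genes of STAT5 and STAT3 outside the family did not follow 1 direction in CR livers. Among 12 STAT5 targets, Igfals (0.59, adjusted p = 0.0037) and Igf1 (0.37, adjusted p = 0.00718), secreted parts of the growth hormone axis, rose, and Elovl3, a fatty acid elongase, fell (-2.02, adjusted p = 6.68e-07), with a median of -0.10 over the list. Among 15 STAT3 targets 2 rose and 3 fell, with Lcn2 (-3.66, adjusted p = 0.00242) and Saa1 (-2.22, adjusted p = 0.0152), both acute-phase proteins, lower and the immediate early gene Fos higher (2.25, adjusted p = 0.0103). Their median was -0.22. The median over all probes was 0.01 and the calls stood beside the 13.8% and 12.9% of all probes that rose and fell.

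With SRT2104, 2 genes of the same lists passed the test in liver, where 1.51% of all probes rose and 1.65% fell. Of the 12 STAT5 targets Elovl3 fell (-0.89, adjusted p = 0.0102) and of the STAT3 targets Bcl3 fell (-0.65, adjusted p = 0.0228), and 0 genes of the other 6 lists passed the test. Of the 4 measured JAKs in muscle over 15 arrays, Jak2 was lower (-0.78, adjusted p = 0.00401) and Tyk2 higher (0.33, adjusted p = 0.0147) with SRT2104 than on SD. Over 12 arrays their values were -0.70 and 0.36 (adjusted p = 0.00242 and 0.00298). Over the 15, Ube2f of the 7 ligase genes fell (-0.51, adjusted p = 0.0392). Of 6 measured STAT3 targets, Mcl1, which blocks apoptosis, rose (0.51, adjusted p = 0.00486). Among 3 measured STATs, 11 receptors and receptor substrates, 7 other inhibitors, 18 other SOCS box proteins and 8 STAT5 targets, 0 genes were called. The calls over 15 arrays stood beside the 3.78% of all probes that rose and 6.99% that fell. Over 12 arrays, where 1887 of 10792 probes rose and 1544 fell with SRT2104, more genes were called. Stat6 rose (0.27, adjusted p = 0.0136), as did 3 of 18 other SOCS box proteins. Of the 7 ligase genes 2 rose, Rbx1 (0.29) and Nedd8 (0.29), and 2 fell, among them Cul5 (-0.31). Of 11 receptors and receptor substrates 1 rose and 1 fell, as of the 7 other inhibitors, and 0 of 8 STAT5 targets were called. With CR in muscle, 0 genes of these 8 lists passed the test over 15 arrays. Over 12 arrays, where 1.58% of probes fell with CR, Irs2, an insulin receptor substrate (-1.26, adjusted p = 0.0331), Pias4 (-0.41, adjusted p = 0.0466) and Bcl2l1, a STAT5 target that blocks apoptosis (-0.35, adjusted p = 0.0331), were lower.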

How the data were processed

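RNA of liver and muscle (5 arrays for each tissue and diet) was hybridised to Illumina MouseRef-8 v2 BeadChips. The authors deposited signal intensity, as given by GenomeStudio 1.6.0, a detection p-value per probe and array, and a score, the z-score of the natural log of the signal on each array. A probe counted as measured in a tissue where its detection p-value was below 0.02 on 5 or more of 15 arrays. For each array the scores of measured probes were brought to a common mean and SD (1), then put into log2 units with the average array SD of that tissue, which assumes arrays of like overall spread. Diets were compared over the 15 arrays of a tissue with limma 3.58.1 in R 4.3.3, with Benjamini-Hochberg adjustment over all measured probes and a limit of 0.05. Interactions were fitted over 30 arrays, and correlations were tested by permutation. Signal columns name the diet but no replicate, so scores gave the values by replicate. Precision is limited by the number of arrays, and p-values measure the spread between these samples. On simulated data with noise of equal spread in every diet and 200 probes changed by 1 log2 unit, the fits recovered most of these changes. The changed probes were drawn at random from all measured probes, whose median within-diet SD was 0.14 in liver and 0.22 in muscle. The recovery therefore does not cover members as variable as Cish, Socs2 and Socs3, at 0.78 to 1.06 in liver. Smaller changes and deviant arrays were not simulated. Members and lists were chosen with earlier results of these data known. The genes named are all members, the 3 most like Cish and Socs2, and up to 3 of each list with the smallest adjusted p. The result of 1 further gene list is not reported here. Promoters came from RefSeq (GRCm38.p6). Figures were drawn with matplotlib 3.10.9.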

Additional observations from a re-analysis of the deposited data

Results flagged for a closer look

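In 3 of the 36 groups of 5 arrays, 1 array lay far from the other 4 for a family member (a gap of over 0.71 of the whole range), and chance gives about 1 in 20. Cish was at 11.67 in the liver of SRT2104 replicate 5 and at 8.62 to 9.33 in the other 4 SRT2104 livers. Socs2 was at 10.34 in the liver of SD replicate 1 and at 8.12 to 8.60 in the other 4 SD livers. Socs2 was at 9.38 in the muscle of SRT2104 replicate 3, the array with hepatocyte transcripts, and at 8.60 to 8.75 in the other 4.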

How the results depend on the processing

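The members called in CR against SD livers (4) numbered 2 by the methods' t-test and 3 to 6 without 1 array. In SRT2104 against CR livers (1) they numbered 0 with neqc or no filter, 2 with quantile normalization, only the 2 diets, the methods' t-test or the mean of all kept probes, and 0 to 2 without 1 array. In SRT2104 against SD livers (0) they numbered 0 to 1 without 1 array, the 1 being Socs2 without SD replicate 1. In muscle, SRT2104 against SD (0) gave 1 with only the 2 diets or over 12 arrays and 0 to 2 without 1 array, CR against SD (0) gave 1 over 12 arrays, and SRT2104 against CR (1) gave 0 with no filter, only the 2 diets or the methods' t-test and 0 to 1 without 1 array. For the difference between tissues, CR (0) gave 1 over 27 arrays, 1 with no filter (Socs7, below detection) and 0 to 1 without 1 array, and SRT2104 (0) gave 0 to 1. These were Socs3 with CR and Socs2 with SRT2104 without SD liver replicate 1, and in other fits Socs4 with CR and Socs6 with SRT2104. The members called between tissues on SD (3) numbered 2 to 4. By the methods' t-test at an unadjusted p under 0.05, 4 members passed for CR against SD, 2 for SRT2104 against CR and 1 for SRT2104 against SD in liver, and 2, 1 and 3 in muscle, of which 2, 2 and 0 in liver and 0 in muscle passed after Benjamini-Hochberg adjustment. Over all probes, called probes numbered 350 for SRT2104 against SD livers and 12 (t-test) to 889 (no filter) otherwise. In muscle they numbered 1162 (408 higher) for SRT2104 against SD and 3431 (1887 higher, 1544 lower) over 12 arrays, 49 for CR against SD and 1 (t-test) to 219 (12 arrays), and 1152 for SRT2104 against CR and 463 (no filter) to 3674 (12 arrays). Among other scalings, the split of higher and lower calls moved with the deposited scores left as they are to 147 higher and 841 lower for SRT2104 against SD muscles and 196 and 339 in livers, and with neqc to 164 and 657 in those muscles and 293 and 515 for SRT2104 against CR muscles. The cause of these shifts was not tested. The Cish and Socs2 correlation in muscle was 0.691 over 12 arrays.

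The replicate block gave 32 of 34 values of single members on the same side of the threshold. Socs2 in CR against SD livers was then called (1.04, adjusted p = 0.0206) and Socs6 was not (0.23, adjusted p = 0.0621). The correlations did not show that the numbers pair arrays. Between diets of 1 tissue, the deviations of same-numbered arrays correlated at -0.251 to 0.306, 15 of 30 pairs being over 0.1. Between liver and muscle of 1 diet they correlated at -0.123 to 0.364, 5 of 15 being over 0.1 and 4 of these on SD, and 4 of 15 arrays correlated best with their own number. With liver and muscle arrays of 1 number as a block, 0 members were called for the difference between tissues on either diet.

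Signs turned only for uncalled values. In SRT2104 against CR muscles Cish was 0.25 over 12 arrays and -0.46 to 0.22 without 1 array, and Socs2 was -0.03 with neqc, -0.01 with quantile normalization, -0.25 over 12 arrays and -0.13 to 0.15 without 1 array. Without 1 array, Socs2 ranged over -0.03 to 0.33 for SRT2104 and -0.04 to 0.32 for CR against SD muscles, and -0.09 to 0.48 for SRT2104 against CR livers. Socs3 ranged over -0.04 to 0.50 for SRT2104 against CR livers, and Cish over -0.14 to 0.63 for SRT2104 against SD livers. Of 1000 values of single members over these settings, 925 kept direction and side of the threshold. They cover 39 member results, uncalled ones included, and 19 sign changes of other uncalled values stand outside the count. Called results varied: without 1 array, Socs4 and Socs5 in CR against SD livers were called in 15 of 15 fits. Socs6 was called there in 3, and Cish for SRT2104 against CR livers in 8. A probe near background, such as Socs4 in muscle, has little signal to show a change.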
